A study of Mus musculus with 4 samples.

Results

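The miR-26 family was followed in mouse embryonic stem (ES) cells and in the epiblast-like aggregates (ELA) made from them. Its members were taken by name from the small RNA-seq table and are mmu-miR-26a-5p, mmu-miR-26b-5p and mmu-miR-26b-3p, 3 of the 1907 mature miRNAs listed. The table also holds the remaining arms of the same hairpins, mmu-miR-26a-2-3p and mmu-miR-26a-1-3p, and these 2 are given beside the members. All libraries came from E14Tg2A, an ES cell line of strain 129/Ola, and there was 1 library for each of 4 groups. ES serum (day 0) were ES cells kept in 10% fetal calf serum with LIF (leukemia inhibitory factor, 1000 U/mL), and ES 2iL (day 0) were ES cells moved for several passages to serum-free N2/B27 medium with the same LIF, the MEK inhibitor PD0325901 (1 µM) and the GSK3 inhibitor CHIR99021 (3 µM). ELA serum and ELA 2iL were floating aggregates harvested on day 2 in a minimal N2/B27 medium without LIF or inhibitors, so in their names the medium is that of the parental ES cells. RNA from 3 experiments was combined ahead of library preparation, and variation between cultures can therefore not be measured. In 2 libraries (ES 2iL and ELA serum) the description field of the labels contradicts the title, the source name and the day. The titles, which the column names match, were followed, and with the descriptions instead the stage and medium contrasts below would change places.

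miRNAs guide Argonaute to mRNAs that pair with bases 2 to 8 of the miRNA, the seed, and so restrain translation. A hairpin precursor gives a 5p and a 3p arm, of which 1 is usually kept as the guide and the other is mostly lost. The miR-26 hairpins lie in introns of the Ctdsp genes, which code for small phosphatases that act on the C-terminal domain of RNA polymerase II and, together with REST, keep neuronal genes silent outside neurons. miR-26 is known for targeting Ezh2, the methyltransferase of Polycomb repressive complex 2, and several regulators of the cell cycle. It is also among the miRNAs reported as repressed by Myc.

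The mature sequences show which reads can be told apart. All 5 arms were matched in RefSeq (table build GRCm38.p6) and are printed 5′ to 3′ with the seed in capitals.
mmu-miR-26a-5p: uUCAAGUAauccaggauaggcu
mmu-miR-26b-5p: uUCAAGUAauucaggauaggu
mmu-miR-26b-3p: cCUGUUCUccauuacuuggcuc
mmu-miR-26a-2-3p: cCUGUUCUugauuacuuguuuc
mmu-miR-26a-1-3p: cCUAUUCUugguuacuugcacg
Both 5p arms carry the seed UCAAGUA, which no other listed miRNA with a RefSeq sequence shared (1623 of 1907 listed names had one). Counted from the 5′ end, they differ by C11U and C21U (the base of mmu-miR-26a-5p first), and mmu-miR-26a-5p is 1 base longer, with 22 bases against 21. mmu-miR-26b-3p shares the seed CUGUUCU with mmu-miR-26a-2-3p and differs from it by C9U, C10G, G19U and C20U. The other listed carriers of that seed, mmu-miR-6932-3p and mmu-miR-7039-3p, had at most 1.08 RPM in any library. mmu-miR-26a-1-3p differs from mmu-miR-26a-2-3p by 6 substitutions, one of them (G4A) in the seed.

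mmu-miR-26a-5p is made from 2 hairpins and mmu-miR-26b from 1. The hairpins are shown as read from the plus strand of mm9, with both mature arms in capitals, because the 26a loci can be told apart by the 3p arm alone.
Mir26b: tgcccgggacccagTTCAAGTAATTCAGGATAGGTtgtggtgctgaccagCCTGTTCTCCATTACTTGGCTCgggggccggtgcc
Mir26a-1: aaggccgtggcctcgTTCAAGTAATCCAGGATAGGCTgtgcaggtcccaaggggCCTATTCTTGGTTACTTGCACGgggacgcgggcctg
Mir26a-2: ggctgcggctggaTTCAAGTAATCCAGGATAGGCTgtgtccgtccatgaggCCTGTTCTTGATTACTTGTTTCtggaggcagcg
Mir26b (chr1:74440884-74440968) lies in intron 4 of the Ctdsp1 transcript with 7 exons, 235 bases past one exon and 246 before the next. Mir26a-1 (chr9:118940914-118941003) lies in intron 5 of the Ctdspl transcript with 8 exons, 1544 bases past one exon and 1651 before the next. Mir26a-2 (chr10:126432586-126432669) lies in intron 5 of the Ctdsp2 transcript with 8 exons, 1622 bases past one exon and 242 before the next. All 3 are on the strand of their host gene and overlap no exon of the transcripts that span them, so the label of the family as intronic in Ctdsp genes held in this annotation. Expression of the host genes was not analysed here.

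Levels are in RPM (reads per 1000000 miRNA reads), a share and not an amount per cell. Fewer cells carrying a miRNA and less of it per cell cannot be told apart. The libraries held 587363 (ELA 2iL) to 8056984 reads (ES serum), a 13.7-fold range, and 3 reads, the limit that a count of 0 allows, equal 0.372 RPM in ES serum and 5.11 RPM in ELA 2iL. Intervals below are 95% and cover counting error only. Of the defining miRNAs of pluripotent cells, 4 of the miR-290 to miR-295 cluster summed to 41028 to 142214 RPM, although mmu-miR-292a-3p was at 0 in every library, and 4 of the miR-302/miR-367 cluster, which mark primed cells, went from 5222 RPM in ES cells to 32895 RPM in ELA from serum and from 67.6 to 5549 RPM from 2iL. With the descriptions in place of the titles the miR-302/miR-367 sums would be lower in ELA than in ES cells for both media. Among markers of other cells, liver mmu-miR-122-5p was at 0 throughout, the 2 listed blood miRNAs summed to 1.62 to 8.51 RPM, the 3 of muscle to 0 to 73.2 RPM and the 2 of neural cells to 262 to 424 RPM. The 4 fibroblast markers, most of all mmu-miR-143-3p, summed to 3144 RPM in ES serum and 4834 RPM in ES 2iL, and in ELA to 1470 RPM from serum and 1961 RPM from 2iL, although mmu-miR-214-3p was at 0 in both serum libraries. Their sum, like mmu-miR-26a-5p, was highest in ES 2iL. From serum the sum was lower in ELA than in ES cells, whereas mmu-miR-26a-5p was higher (6239 against 4461 RPM). The part of these markers in the results below was not tested.

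mmu-miR-26a-5p was by far the main product of the family. In ES cells it measured 4461 RPM in serum (Wilson interval 4416 to 4508) and 25583 RPM in 2iL (25397 to 25769). The aggregates had 6239 RPM when made from serum cells (6165 to 6314) and 10132 RPM when made from 2iL cells (9879 to 10391). ES 2iL stood above the other libraries, both 2iL libraries lay above both serum libraries, and no 2 intervals overlapped. Its place among the detected miRNAs moved from rank 30 in ES serum and 25 in ELA serum to 14 in ELA 2iL and 10 in ES 2iL.

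mmu-miR-26b-5p, the guide from the Ctdsp1 locus, was lower in each library. Its level in ES cells was 735 RPM in serum (717 to 754) and 1864 RPM in 2iL (1814 to 1916), and in aggregates 718 RPM from serum (693 to 743) and 1004 RPM from 2iL (927 to 1089). The order repeated that of mmu-miR-26a-5p except at the bottom, where the serum libraries could not be separated at this depth. It ranked between 57 (ES 2iL) and 90 (ELA serum). The expressed miRNAs, those whose log2(RPM + 1) averaged 5 or more (both 5p guides and 300 others), served as background, and in 33.8% of them both 2iL libraries lay above both serum libraries.

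mmu-miR-26b-3p, the passenger arm, followed another order. ES cells had 21.97 RPM in serum (177 reads) and 22.8 RPM in 2iL (63 reads), and aggregates 12.1 RPM from serum (52 reads) and 17.0 RPM from 2iL (10 reads). Both ES libraries were above both ELA libraries, as for 19.9% of the expressed miRNAs, but the intervals of 19.0 to 25.5, 17.8 to 29.1, 9.20 to 15.8 and 9.25 to 31.3 RPM separate ELA serum from the ES libraries only. With a mean log2(RPM + 1) of 4.24 it is not itself in that set. All 3 members passed the filter used for testing, which asked for 10 reads in 2 libraries.

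**Figure D1:**
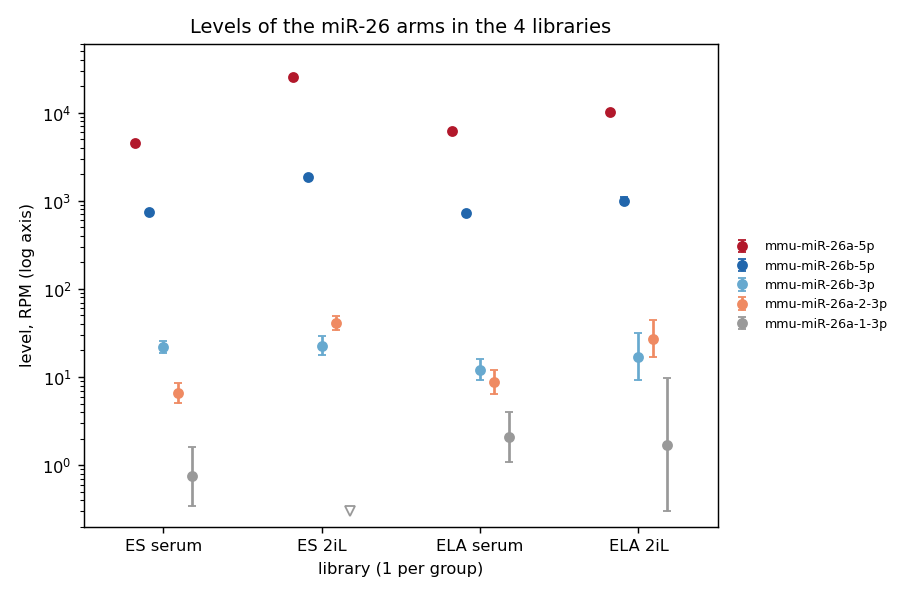
Levels of the 5 miR-26 arms (RPM, log axis) in the 4 libraries, with points for the single library of each group and bars for Wilson 95% intervals. mmu-miR-26a-5p and mmu-miR-26b-5p peak in ES 2iL (25583 and 1864 RPM), mmu-miR-26b-3p stays between 12.1 and 22.8 RPM, and the open triangle marks mmu-miR-26a-1-3p with 0 reads in ES 2iL.

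The 3 members summed to 0.522% of miRNA reads for ES cells in serum (Wilson interval 0.517 to 0.527) and 2.75% in 2iL (2.73 to 2.77). In aggregates they summed to 0.697% from serum (0.689 to 0.705) and 1.12% from 2iL (1.09 to 1.14). mmu-miR-26a-5p contributed 85.5% of these reads in ES serum and 93.1% in ES 2iL, with 89.5% and 90.8% in the ELA libraries. The sum therefore follows mmu-miR-26a-5p closely.

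The first comparison concerned the medium, that is, ground-state ES cells in 2iL against ES cells in serum. In ES cells mmu-miR-26a-5p was 5.73-fold higher in 2iL, a log2 difference of 2.52 (exact interval 2.50 to 2.54). mmu-miR-26b-5p was 2.53-fold higher, by 1.34 on the log2 scale (1.29 to 1.40). Under RPM both passed a fold rule with the limits that the study set for miRNAs. It asks for a log2 difference of at least 1 at a mean of at least 5. In this pair 32.9% of 310 miRNAs passed it upwards and 14.8% downwards. Counting upward differences alone, 17 of the 310 exceeded mmu-miR-26a-5p and 69 exceeded mmu-miR-26b-5p. For mmu-miR-26b-3p the difference was 0.05 (interval of the log2 ratio −0.39 to 0.47), so a change was not detectable at this depth.

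After 2 days as aggregates the gap between the media was narrower. mmu-miR-26a-5p was 1.62-fold higher in ELA 2iL than in ELA serum, a log2 difference of 0.70 (0.66 to 0.74), and mmu-miR-26b-5p 1.40-fold higher, by 0.48 (0.36 to 0.61). Neither passed the fold rule, which 20.9% of the miRNAs at that mean passed upwards and 8.94% downwards. A difference above 0 at both stages, as in all 3 members under RPM, was seen in 52.0% of the expressed miRNAs. The median expressed miRNA was itself 0.37 higher in 2iL, and relative to it the differences were 0.33 and 0.12. mmu-miR-26b-3p differed by 0.46 (interval of the log2 ratio −0.65 to 1.49), with only 10 reads in ELA 2iL.

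Averaged over both stages, mmu-miR-26a-5p was higher in 2iL by 1.61 ± 0.60 (log2, limma standard error, n = 4 libraries; limma adjusted p = 0.168, unadjusted 0.0464). mmu-miR-26b-5p was higher by 0.91 ± 0.48 (limma adjusted p = 0.278) and mmu-miR-26b-3p by 0.26 ± 0.45 (limma adjusted p = 0.712). None passed the threshold of 0.05, and limma called 0 of 599 miRNAs for the medium (0.0%), with 176 at an unadjusted p under 0.05. edgeR on the reads recovered from the RPM values called 64 (10.7%) and DESeq2 80 (13.4%), again with none of the members, whose edgeR adjusted p-values were 0.193, 0.554 and 0.888. Without a filter on low values, mmu-miR-26a-5p passed with limma (adjusted p = 0.0468), as did 10.8% of the 1202 miRNAs then tested. Of all expressed miRNAs, 23.8% were higher in 2iL by at least 1 in this average, as mmu-miR-26a-5p was.

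The choice of scaling bears on these sizes because the median expressed miRNA was 0.42 higher in 2iL under RPM and 0.0042 higher under TMM. Relative to that median, the medium contrast was 1.19 for mmu-miR-26a-5p, 0.49 for mmu-miR-26b-5p and −0.16 for mmu-miR-26b-3p. The 5p arms stayed higher in 2iL under all 4 scalings, from 1.19 to 1.61 and from 0.49 to 0.91. In ES cells alone, mmu-miR-26b-5p fell short of the fold limit under TMM (0.85) and DESeq2 size factors (0.94). mmu-miR-26a-5p stayed above that limit under all 4 (2.03 to 2.52). mmu-miR-26b-3p turned sign, with −0.14 under TMM and −0.10 under DESeq2 size factors.

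**Figure D2:**
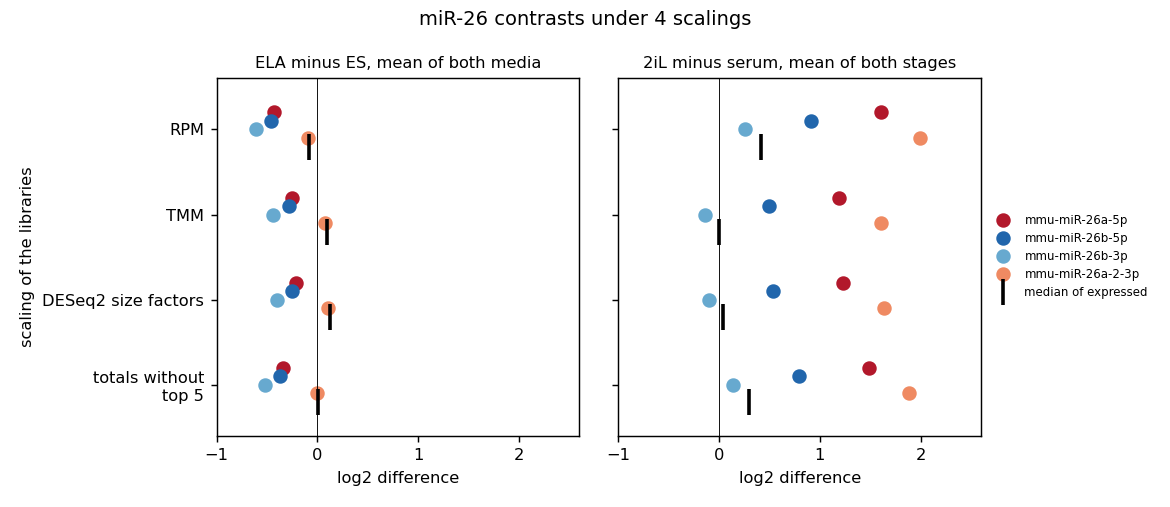
Contrasts of 4 miR-26 arms (log2 difference on the horizontal axis) under 4 ways of scaling the libraries, with ELA minus ES on the left and 2iL minus serum on the right and a black bar for the median of the expressed miRNAs. The 5p arms lie to the right of 0 and of that bar in the medium panel under every scaling, whereas mmu-miR-26b-3p falls to −0.14 under TMM.

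The second comparison was the ES–ELA transition, and here the values for the 2 parental media lay apart. From serum, mmu-miR-26a-5p went from 4461 to 6239 RPM, 1.40-fold higher in ELA, with a log2 difference of 0.48 (0.46 to 0.51). From 2iL it went from 25583 to 10132 RPM, 2.53-fold lower, with a log2 difference of −1.34 (−1.37 to −1.30). Only the latter passed the fold rule, which 25.2% of 314 miRNAs passed downwards and 15.3% upwards in 2iL, against 14.6% and 8.33% of 288 in serum. Changes of opposite sign in the 2 media occurred in 28.1% of the expressed miRNAs. Higher in ELA from serum and lower in ELA from 2iL was seen for 52 of the expressed miRNAs (17.2%).

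mmu-miR-26b-5p from serum had a log2 difference of −0.035 (−0.098 to 0.028), an interval that spans 0. The sign depended on the scaling, with 0.072 under TMM and 0.16 under DESeq2 size factors. It was −0.11 with totals without the 5 most abundant miRNAs. From 2iL mmu-miR-26b-5p was 1.86-fold lower in ELA, by a log2 difference of −0.89 (−1.02 to −0.77), short of the fold rule. mmu-miR-26b-3p was 1.82-fold lower in ELA from serum (log2(RPM + 1) difference −0.81, interval of the log2 ratio −1.34 to −0.41) and differed by −0.40 from 2iL (−1.55 to 0.55).

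In the average over both media the members differed by −0.43 ± 0.60, −0.46 ± 0.48 and −0.61 ± 0.45 (mmu-miR-26a-5p, mmu-miR-26b-5p and mmu-miR-26b-3p, log2 with limma standard errors). Their limma adjusted p-values were 0.708, 0.592 and 0.461, so no member passed the threshold. limma called 0 of 599 miRNAs for stage (0.0%), with 125 at an unadjusted p under 0.05, edgeR called 39 (6.51%) and DESeq2 50 (8.35%), with 0 of the members among them. For mmu-miR-26a-5p this average joins changes of opposite sign. Its change from 2iL minus its change from serum was −1.82, and 29 of the expressed miRNAs had a larger value in size. Each change compares 1 library with 1 library, and the difference between them was not tested.

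**Figure D3:**
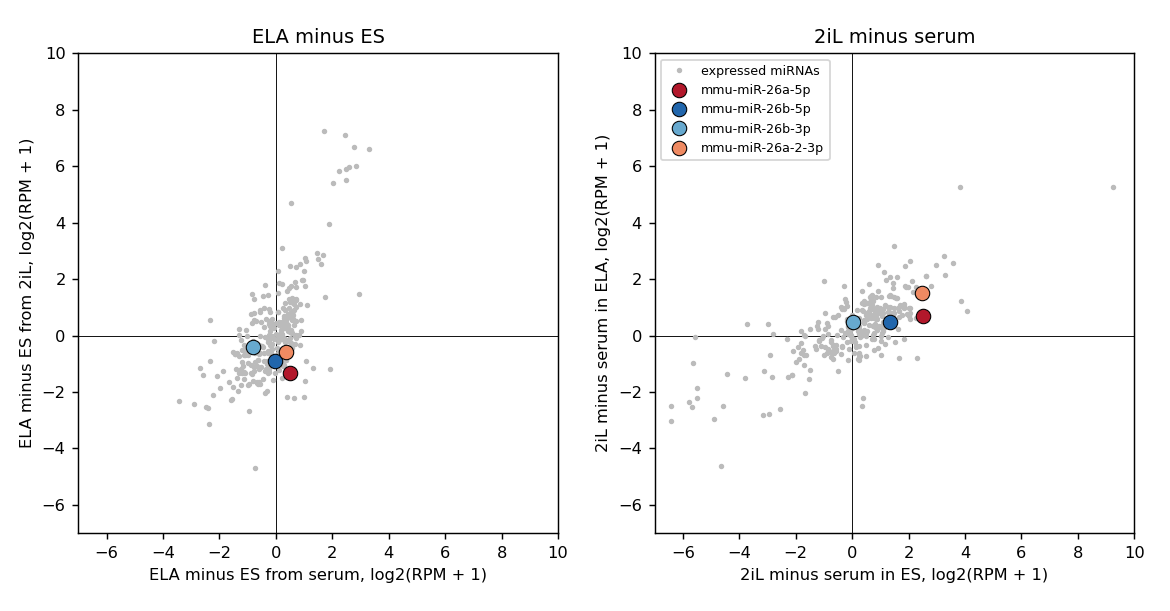
Differences in log2(RPM + 1) for the expressed miRNAs (grey) and 4 miR-26 arms (coloured), with the ES–ELA change from serum against that from 2iL on the left and the 2iL minus serum difference in ES against that in ELA on the right. On the left mmu-miR-26a-5p sits at 0.48 and −1.34, below the horizontal line and right of the vertical one, and on the right at 2.52 and 0.70.

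Ratios of reads within a library do not depend on the scaling. With 2 libraries against 2, an exact permutation test cannot give a two-sided p below 0.333, so they are described by counting intervals. The ratio of mmu-miR-26a-5p to mmu-miR-26b-5p was 6.07 for ES cells in serum (exact interval 5.90 to 6.24) and 13.7 for those in 2iL (13.3 to 14.1), and in aggregates 8.69 from serum (8.37 to 9.03) and 10.1 from 2iL (9.27 to 11.0). ES serum and ES 2iL were the extremes, and the ELA libraries lay between them. In ES cells the ratio was 2.26-fold higher in 2iL (2.17 to 2.35), and in ELA 1.16-fold higher (1.06 to 1.27). At the transition it was 1.43-fold higher in ELA from serum (1.37 to 1.50) and changed by a factor of 0.735 from 2iL (0.672 to 0.805). The 2 guides share their seed but not the size of their difference between media. Since they differ at 2 positions and the mismatches allowed in mapping were not given, reads could cross between them, which was not tested.

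The arms of Mir26b also differed in ratio between libraries. For each read of mmu-miR-26b-3p there were 33.5 of mmu-miR-26b-5p for ES cells in serum (28.8 to 39.1) and 81.9 for those in 2iL (63.9 to 107), and in aggregates 59.5 from serum (45.2 to 79.8) and 59.0 from 2iL (31.9 to 124). The ES serum interval was separate from those of ES 2iL and ELA serum, and the wide interval of ELA 2iL overlapped every other. In ES cells the 5p to 3p ratio was 2.45-fold higher in 2iL (1.82 to 3.32), a log2 change of 1.29. Over the 99 hairpins with at least 10 reads of both arms in all 4 libraries, the median log2 change of this ratio between ES 2iL and ES serum was 0.04, and 15 hairpins changed more upwards. In ELA the ratio differed by a log2 change of −0.012 (−1.01 to 1.14). Of these 99 hairpins, 3 (ES 2iL) to 10 (ES serum) had a higher 5p to 3p ratio than Mir26b. The limit on reads leaves out hairpins with a rarer arm, so this is no rank over all hairpins. The 26a hairpins are not among the 99. Their guide had 372 (ELA 2iL) to 708 (ELA serum) reads for each read of mmu-miR-26a-2-3p.

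**Figure D4:**
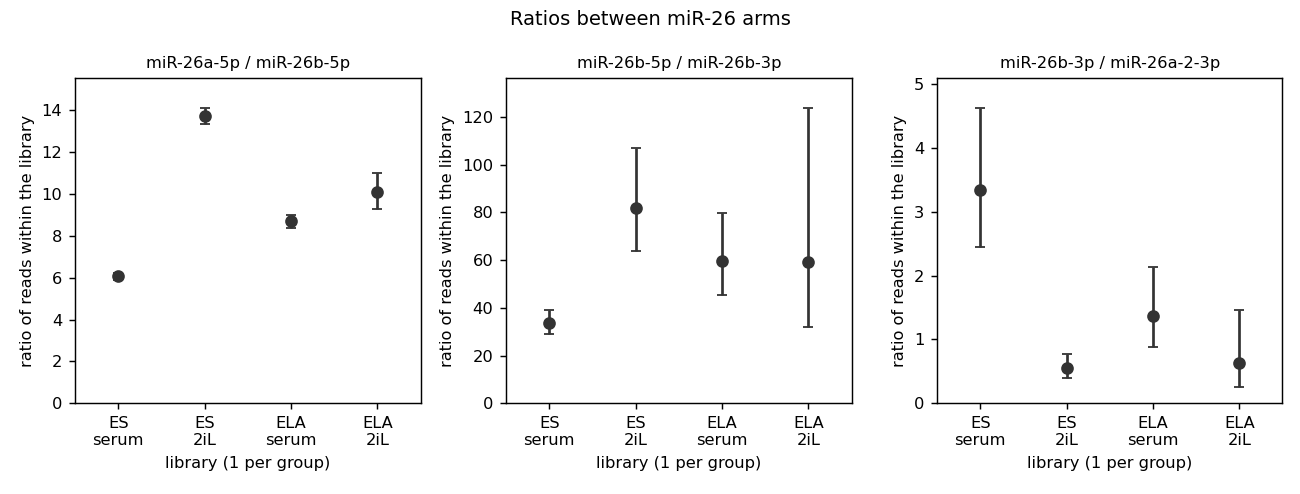
Ratios of reads between miR-26 arms within each library (linear axes from 0), with exact 95% intervals for counting error as bars. The ratio of the 5p guides and the 5p to 3p ratio of Mir26b are lowest in ES serum (6.07 and 33.5) and highest in ES 2iL (13.7 and 81.9), and the ratio of the 3p arms falls from 3.34 to 0.558 between them.

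Since both 26a hairpins give the same guide, their 3p arms are the only sequences that separate the loci. mmu-miR-26a-2-3p, from the Ctdsp2 intron, measured 6.58 RPM for ES cells in serum (53 reads) and 40.8 RPM in 2iL (113 reads), and in aggregates 8.82 RPM from serum (38 reads) and 27.2 RPM from 2iL (16 reads). It was higher in both 2iL libraries, like the guide. mmu-miR-26a-1-3p, from the Ctdspl intron, had 6, 0, 9 and 1 reads in the same order of libraries, and 0 reads in ES 2iL allow a level of up to 1.08 RPM.

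Of the 26a 3p reads that can be placed, Mir26a-2 gave 89.8% for ES cells in serum (exact interval 79.2 to 96.2) and 100% in 2iL (96.8 to 100), and in aggregates 80.9% from serum (66.7 to 90.9) and 94.1% from 2iL (71.3 to 99.9). These shares rest on 17 to 113 reads and describe the passenger arms, so they do not give the share of the guide made by either locus.

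In ES cells mmu-miR-26a-2-3p was 6.21-fold higher in 2iL, a log2 ratio of 2.63 (2.15 to 3.13), next to 5.73-fold for mmu-miR-26a-5p. The ratio of guide to 3p arm changed by a factor of 0.924 (0.653 to 1.29), no difference detectable at this depth. In ELA mmu-miR-26a-2-3p was 3.09-fold higher in 2iL (log2 ratio 1.63, 0.69 to 2.50), and the ratio changed by a factor of 0.526 (0.286 to 1.01). At the transition it changed by a factor of 1.04 from serum (0.675 to 1.63) and 0.594 from 2iL (0.350 to 1.07), all intervals that include 1. Over both stages its difference was 1.99 ± 0.49 (limma adjusted p = 0.114, edgeR adjusted p = 0.0792), and under the other settings with a test the adjusted p ran from 0.00858 to 0.205, passing the threshold without a filter (10.8% of 1202 called) and with totals that leave out the 5 most abundant miRNAs (0.0186, with 18.2% of 599 called). Between ES cells and ELA it differed by 0.37 from serum and −0.57 from 2iL, with intervals of the log2 ratio that span 0 (−0.22 to 1.05 and −1.44 to 0.18).

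Of the 3p arms with a common seed, mmu-miR-26b-3p was the more abundant in ES serum and mmu-miR-26a-2-3p in ES 2iL. There were 3.34 reads of mmu-miR-26b-3p for each read of mmu-miR-26a-2-3p in ES serum (2.44 to 4.63) and 0.558 in ES 2iL (0.403 to 0.765), a change by a factor of 0.167 (0.105 to 0.264). In ELA serum the ratio was 1.37 (0.883 to 2.14) and in ELA 2iL 0.625 (0.254 to 1.46), which are not separated at this depth.

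To see which miRNAs had a similar course, the profile of each over the 4 libraries was centred on its own mean and compared by Euclidean distance among 300 expressed miRNAs outside the family. Nearest to mmu-miR-26a-5p were mmu-miR-15a-5p (distance 0.351), mmu-miR-301a-3p (0.378) and mmu-miR-107-3p (0.414). mmu-miR-15a-5p, for example, went from 170 to 696 RPM between serum and 2iL in ES cells and from 207 to 337 RPM in ELA. Nearest to mmu-miR-26b-5p were mmu-miR-99b-3p (0.126), mmu-miR-32-5p (0.142) and mmu-miR-324-5p (0.164). mmu-miR-26b-3p was nearest to mmu-miR-293-3p (0.163), an arm of the miR-290 to miR-295 cluster, then to mmu-miR-183-3p (0.265) and mmu-miR-467b-5p (0.285). The members were not each other's closest match, as mmu-miR-26b-5p would rank 20 by distance to mmu-miR-26a-5p, and mmu-miR-26a-5p would rank 74 by distance to mmu-miR-26b-5p. With 4 points, likeness is a description of these libraries.

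A list of 27 other miRNAs reported as repressed by Myc gave the family a wider setting, of which 26 were tested and 21 were among the expressed miRNAs. Averaged over both stages, 12 of the 21 were higher in 2iL by at least 1 and 1 was lower, next to 23.8% and 13.2% of the expressed miRNAs. Their median was 1.08 on the log2 scale against 0.42 for all expressed. mmu-let-7f-5p (3.07) and mmu-let-7g-5p (3.05), guides of the let-7 family that promotes differentiation, had the highest values, and mmu-miR-146a-5p (−2.996) and mmu-miR-195a-5p (−0.45) the lowest. mmu-miR-26a-5p, at 1.61, was exceeded by 4 of the 21, and mmu-miR-26b-5p, at 0.91, by 14. Among all expressed miRNAs, 29 lay above mmu-miR-26a-5p and 272 below it, and 83 lay above mmu-miR-26b-5p and 218 below it. With limma 0 of the 26 passed, and with edgeR 5 passed upwards, all of them let-7 guides, and 1 downwards (mmu-miR-146a-5p), next to 3.67% and 7.01% of all 599 tested. The let-7 guides are near-identical in sequence, so reads may be divided between them with error.

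For stage, 1 of the 21 was higher in ELA by at least 1 and 6 were lower, next to 11.6% and 16.2% of the expressed miRNAs, with a median of −0.38 against −0.08. The lowest were mmu-miR-150-5p (−2.49), the only one that passed with edgeR (adjusted p = 0.00897, with 2.17% of the 599 lower and 4.34% higher), and mmu-miR-23a-3p (−1.99), and the highest mmu-miR-195a-5p (1.03) and mmu-miR-146a-5p (0.59). In the change from 2iL minus the change from serum, where mmu-miR-26a-5p had −1.82, all 21 lay above it, the lowest being mmu-miR-15a-5p (−1.32). The same held for most expressed miRNAs, with 293 above mmu-miR-26a-5p and 8 below it, so this does not set the list apart.

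**Figure D5:**
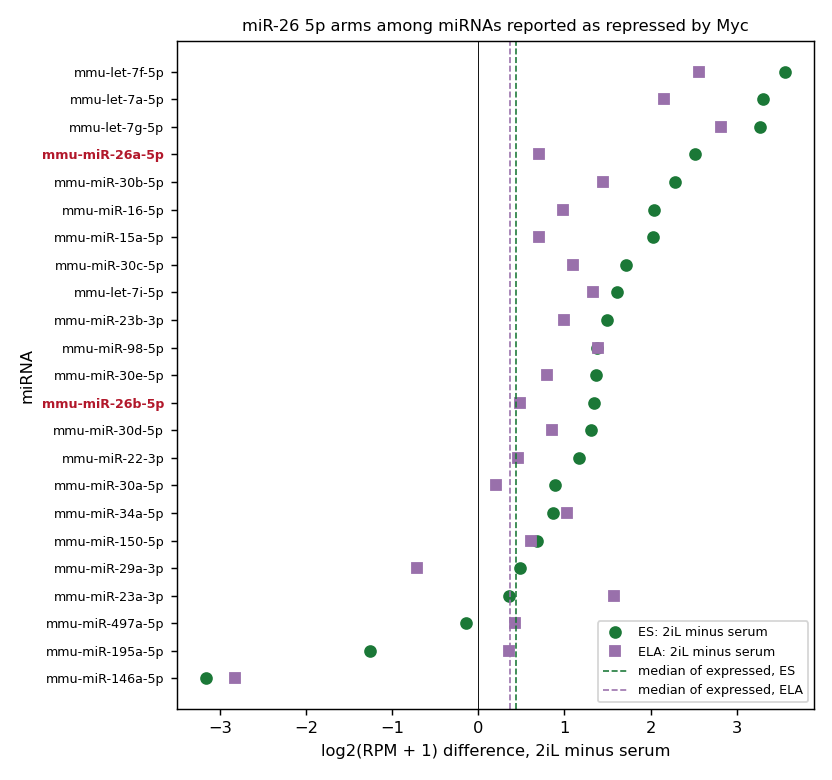
Differences in log2(RPM + 1) between 2iL and serum in ES cells (circles) and in ELA (squares) for the 21 expressed miRNAs of the Myc list and both miR-26 guides (red names), with dashed lines at the medians of the expressed miRNAs (0.44 in ES and 0.37 in ELA). In ES cells mmu-miR-26a-5p lies at 2.52, with 3 of the 21 above it, while its ELA value of 0.70 is lower than that of 14 of the 21. Among all miRNAs with a mean of at least 5 in the pair, 17 of 310 exceed mmu-miR-26a-5p in ES cells and 104 exceed it in ELA.

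Other miRNAs reported to target Ezh2 were looked at in the same way. Of 13 named, 11 were tested and 8 were expressed, 5 of them let-7 family guides that the Myc list also holds. In the average over both stages, 6 of the 8 were higher in 2iL by at least 1 and 0 were lower, next to 23.8% and 13.2% of the expressed miRNAs, with a median of 1.97 against 0.42. The values were 0.92 for mmu-miR-101a-3p and 0.34 for mmu-miR-101b-3p, the lowest, and 2.47 for mmu-miR-138-5p. The last of these was higher in ELA from serum (1.01) and lower in ELA from 2iL (−2.16), signs shared with mmu-miR-26a-5p by 4 of the 8 and by 6 of the 21 of the Myc list, next to 17.2% of the expressed miRNAs. For stage 3 of the 8 were lower in ELA by at least 1 and 0 were higher, next to 16.2% and 11.6%, with a median of −0.48 against −0.08. The lowest were mmu-let-7f-5p (−1.17) and mmu-let-7a-5p (−1.13), and the highest mmu-miR-98-5p (0.22) and mmu-let-7i-5p (−0.0073). With limma 0 of the 11 passed for either contrast, and with edgeR 5 passed upwards for the medium (let-7a, let-7d, let-7e, let-7f and let-7g 5p guides, of which let-7d and let-7e are not among the 8), next to 3.67% of all 599, and 0 passed for stage.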

How the data were processed

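Small RNA libraries (TruSeq Small RNA kit, miSeq) were made from pooled total RNA, 1 library per group. The authors trimmed adaptors with Trimmomatic, mapped reads with Bowtie to mm9, assigned them to miRBase 20 with featureCounts, and deposited RPM values. They tested expression with edgeR. The submitters' processing notes name CASAVA 1.8, and other versions, allowed mismatches and the treatment of reads with several places, such as those of mmu-miR-26a-5p, are not given in the sources used here. Each column summed to 1000000 over 1907 miRNAs, and 0 columns were left out. All values above 0 (100%) were whole multiples of 1 read within 0.01 reads, which gave back the read numbers.

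Differences were taken on log2(RPM + 1). This pseudocount understates changes of low miRNAs, so exact intervals refer to the ratio without it. limma 3.58.1 was fitted with stage and medium as terms to 599 miRNAs that reached 10 reads in 2 or more libraries (1 residual degree of freedom, Benjamini-Hochberg adjustment, two-sided, threshold 0.05). The 2 media thus stand in for replicates of a stage. The residual of a miRNA is the difference between its 2 stage changes. limma weighs it with a prior from all miRNAs tested (3.79 prior degrees of freedom). p-values therefore measure no spread between libraries of 1 group. edgeR 4.0.16 and DESeq2 1.42.0 on the recovered reads were alternatives. The fits were also run on simulated reads that held stage changes alone. These reads had no difference between media and no stage change that differed between media, so they do not check the p-values above. Named miRNAs are the members, other arms of their hairpins, miRNAs with the same seed, the 3 nearest profiles per member, and the 2 highest and lowest of each list. Cell type markers were named besides, and mmu-miR-138-5p and the let-7 guides that edgeR called were named after their values were seen. Members and lists were chosen with earlier results of these data known. Hairpins were read from mm9 with the GENCODE M1 annotation and mature sequences from RefSeq.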

Additional observations from a re-analysis of the deposited data

Results flagged for a closer look

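Results are given here where the change had opposite signs in the 2 media or at the 2 stages. None of these differences was tested, since each change compares 1 library with 1 library. mmu-miR-26a-5p was higher in ELA from serum (log2 difference 0.48) and lower in ELA from 2iL (−1.34), with both counting intervals clear of 0. mmu-miR-26a-2-3p had 0.37 from serum and −0.57 from 2iL, with both counting intervals spanning 0.

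The log2 ratio of mmu-miR-26a-5p to mmu-miR-26b-5p reads changed at the transition by 0.52 from serum and by −0.44 from 2iL, both intervals clear of 0. The ratio of mmu-miR-26b-5p to mmu-miR-26b-3p changed by 0.83 from serum and −0.47 from 2iL, the latter from 10 reads of mmu-miR-26b-3p in ELA 2iL and with an interval of −1.46 to 0.66. Between media it changed by 1.29 in ES cells and −0.012 in ELA (−1.01 to 1.14). That of mmu-miR-26a-5p to mmu-miR-26a-2-3p changed by 0.061 from serum (−0.57 to 0.70) and −0.75 from 2iL (−1.51 to 0.10). The ratio of mmu-miR-26b-3p to mmu-miR-26a-2-3p changed by −1.29 from serum and 0.16 from 2iL (−1.23 to 1.49).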

How the results depend on the processing

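The 6 contrasts of the members were recomputed under 8 settings with a test (3 scalings, 2 pseudocounts, no filter on low values, edgeR and DESeq2). Of the 48 values, 43 kept the direction and the side of the threshold. The medium contrast of mmu-miR-26a-5p passed without the filter (1.61, adjusted p = 0.0468, against 0.0739 to 0.279 under the others). That of mmu-miR-26b-3p turned to −0.14 (TMM), −0.10 (DESeq2 size factors), −0.19 (edgeR) and −0.13 (DESeq2). The stage contrast of mmu-miR-26a-2-3p turned to 0.075 (TMM), 0.11 (DESeq2 size factors), 0.11 (edgeR) and 0.14 (DESeq2), and the cause of these changes was not tested.

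Calls over all miRNAs for stage and medium rose from 0 and 0 to 45 and 74 with TMM, 89 and 109 with totals without the 5 most abundant miRNAs, 9 and 38 with a pseudocount of 5 RPM, 99 and 130 without the filter (1202 miRNAs tested), 39 and 64 with edgeR and 50 and 80 with DESeq2, and stayed at 0 and 0 with DESeq2 size factors and with a pseudocount of 0.1 RPM.

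Leaving out a library leaves 1 pair within a medium or a stage and no test. Without 1 library, the stage contrast ran from −1.34 to 0.48 for mmu-miR-26a-5p, −0.89 to −0.035 for mmu-miR-26b-5p and −0.81 to −0.40 for mmu-miR-26b-3p, and the medium contrast from 0.70 to 2.52, 0.48 to 1.34 and 0.05 to 0.46. The stage contrast of mmu-miR-26a-2-3p ran from −0.57 to 0.37. The averaged log2 ratio of mmu-miR-26a-5p to mmu-miR-26b-5p reads ran from −0.44 to 0.52 for stage and from 0.21 to 1.18 for medium, and that of mmu-miR-26b-5p to mmu-miR-26b-3p from −0.47 to 0.83 and from −0.012 to 1.29. The medium term sets each ELA library against the ES library of its parental medium, and the labels carry no replicate numbers for another block. Depth limits mmu-miR-26b-3p and both 26a 3p arms most, with 1 to 16 reads in ELA 2iL.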
